A study of Mus musculus with 34 samples.

Results

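Islets of mice given streptozotocin (STZ) at 75 mg/kg were compared with islets of mice given diphtheria toxin (DT), both 10 weeks later and both on the diet titled HFD. The comparison used 7 of the 34 bulk RNA-seq libraries of the series, chosen by their titles: 4 STZ HFD libraries and 3 DT HFD libraries. All mice, including untreated ones, carried the genotype RIP-DTR HTZ by the labels, a transgene in which an insulin promoter drives the diphtheria toxin receptor. An untreated group on the same diet, CTRL HFD (n = 4), shows the level without ablation, and STZ SD (n = 4) and DT SD (n = 4) are the same treatments at the same time on the diet titled SD. The age and sex of the mice, the dose of DT, the number of mice behind each library and the time of day of islet collection are unstated in the labels. Nothing in the labels says that the libraries came from separate mice, so the p-values below measure only the spread between libraries, which may be technical.

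Both agents remove beta cells, but by different chemistry. STZ is a glucose analogue that enters cells through the glucose transporter GLUT2 (Slc2a2) and alkylates DNA. DT enters cells that display a receptor it binds well, which mouse cells lack without the transgene, and stops protein synthesis. An islet also holds alpha, delta and PP cells, a dense capillary bed wrapped by pericytes, feeding arterioles with smooth muscle, fibroblasts and resident immune cells, and isolated islets carry acinar tissue that was not picked away.

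The 7 libraries held 12235120 to 15694515 counts in genes, within the range of 11083117 to 18918348 over all 34. No pair of replicates was as alike as sampling noise would make them (chi-square per degree of freedom of at least 77.1), so each was counted once. Levels are given as CPM, counts per 1000000 counts of the scaled library size, and a fold change is on the log2 scale of the fitted means. The islet label held: Sst, the lowest of Ins1, Ins2, Gcg and Sst, was at 906 CPM or more in each of the 7. Other tissue was unevenly present. Acinar genes took 1.44%, 2.68%, 13.7% and 50.1% of the counts of STZ HFD replicates 1 to 4 and 2.47%, 1.52% and 4.26% of DT HFD replicates 1 to 3. DT HFD replicate 1 held 2875 summed CPM of 20 enterocyte genes, against 66.2 to 274 in the other 6. DT HFD replicate 2 had the highest summed mitosis level of the 7 (1400 CPM of 22 genes) and the highest B-cell level (4325 CPM of 15 genes). In bulk tissue, a change in the number of cells of a type and a change in RNA per cell cannot be told apart.

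Few genes differed past the threshold. The fit held all 33 libraries with a group, so the spread behind each p-value was shared over 9 groups. Of 17616 genes tested, 60 passed an adjusted p of 0.05 in edgeR's quasi-likelihood test (0.341%), 15 higher (0.0851%) and 45 lower (0.255%) in STZ HFD. The rises were the larger changes: their median log2 fold change was 1.51, and 12 of 15 were at least 2-fold. The falls were smaller, with a median log2 fold change of -0.61, and 40 of 45 were under 2-fold. In all 60 the libraries of the 2 groups did not overlap. Over all genes, the 4 STZ HFD libraries lay above the 3 DT HFD libraries in 5.15% and below them in 5.99%, and the median log2 fold change was -0.0034. At an unadjusted p below 0.05 there were 2755 genes, 1379 higher and 1376 lower. With the compared groups alone in the fit, 1 gene was called, Gm10260.

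The number of calls moved with single libraries. Leaving out STZ HFD replicates 1, 2, 3 or 4 gave 125, 100, 2 or 1 called genes, and leaving out DT HFD replicates 1, 2 or 3 gave 290, 1 or 2. The direction of the 60 could not turn in these fits, since their groups do not overlap.

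The clearest rise was in Mustn1, a small nuclear protein of the musculoskeletal lineage (chr14:30879200-30881610, GRCm38). It stood at 13.9, 16.2, 13.3 and 14.9 CPM in the 4 STZ HFD libraries and at 4.24, 4.25 and 2.80 CPM in the 3 DT HFD libraries. Every STZ library was above every DT library, and the 4 untreated HFD libraries, at 3.08 to 6.06 CPM, overlapped the DT libraries and not the STZ ones. Its log2 fold change of 1.95 (SE 0.29, edgeR adjusted p = 0.00517) was the smallest adjusted p of the comparison, and it stayed called in 14 of 18 alternatives, among them those without STZ HFD replicate 4 and without DT HFD replicate 2. Against CTRL HFD, Mustn1 was also higher in STZ HFD (log2 fold change 1.73, edgeR adjusted p = 0.00207).

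Tagln, Tpm2 and Myl9 also rose. Tagln, which encodes the actin-binding protein transgelin of smooth muscle (chr9:45929619-45936058), was at 60.8, 63.6, 59.5 and 76.7 CPM after STZ and at 26.1, 20.9 and 15.8 CPM after DT. Tpm2, a tropomyosin that lies along actin filaments (chr4:43514711-43523765), was at 41.1, 31.4, 34.7 and 48.3 CPM against 18.2, 9.03 and 10.3 CPM. Myl9, the regulatory light chain of smooth muscle and non-muscle myosin (chr2:156775420-156781658), was at 60.5, 46.1, 63.2 and 62.7 CPM against 30.1, 14.1 and 16.7 CPM. In each of the 3 genes DT HFD replicate 1 was the highest of its group and still below every STZ library. The log2 fold changes were 1.64 (SE 0.36) for Tagln, 1.63 (SE 0.31) for Tpm2 and 1.51 (SE 0.34) for Myl9, with edgeR adjusted p of 0.0421, 0.0403 and 0.0463. They stayed called in 7, 8 and 5 of the 18 alternatives, and none of them with the acinar score as a covariate (edgeR adjusted p = 0.138, 0.114 and 0.144) or without STZ HFD replicate 3, STZ HFD replicate 4, DT HFD replicate 2 or DT HFD replicate 3. Against CTRL HFD, Tagln and Tpm2 also passed (edgeR adjusted p = 0.0476 and 0.0321) and Myl9 did not (0.0602).

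**Figure D1:**
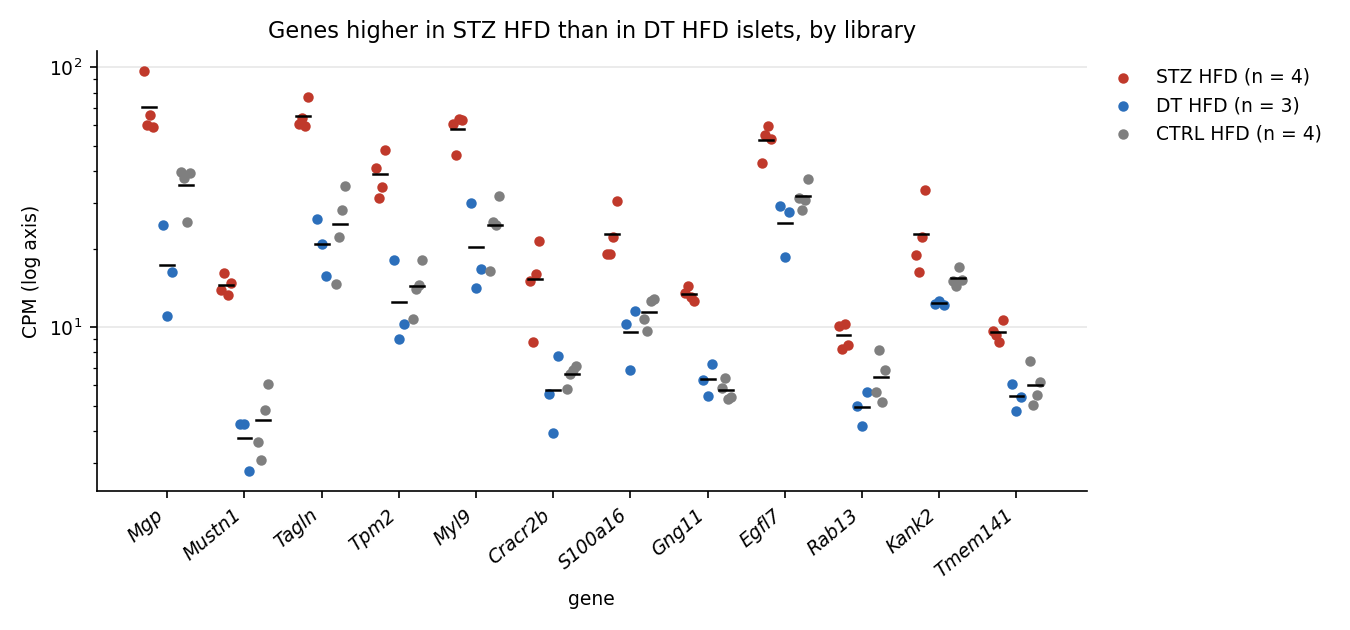
CPM of the 12 named genes that were higher in STZ HFD, on a log axis, 1 point per library, with the group mean as a black bar, for STZ HFD (red), DT HFD (blue) and CTRL HFD (grey). The red points lie above all blue points in every gene; Mustn1, for example, spans 13.3 to 16.2 CPM in red and 2.80 to 4.25 CPM in blue.

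The smooth muscle and pericyte list, 14 genes of the vessel wall, lay above 0 in full: 14 of 14 log2 fold changes were positive with a median of 1.14, beside 8737 of 17616 and -0.0034 over all genes. Of the 14, 2 were called higher (Tagln and Myl9) and none lower, while 0.0851% of all genes were called higher. In 7 of the 14 every STZ library was above every DT library (5.15% of all genes). The other 5 non-overlapping genes were Acta2 (smooth muscle actin), Myh11 (smooth muscle myosin heavy chain), Cnn1 (calponin), Lmod1 (leiomodin, an actin nucleator) and Notch3, a receptor of mural cells. Acta2 was at 86.0, 80.8, 96.9 and 95.3 CPM after STZ and at 49.5, 24.6 and 20.1 CPM after DT, with a log2 fold change of 1.51 (SE 0.39) and an edgeR adjusted p of 0.0746. Myh11 was at 101, 65.9, 88.9 and 116 CPM against 49.2, 28.7 and 25.6 CPM, with a log2 fold change of 1.43 (SE 0.38) and an edgeR adjusted p of 0.0789. Neither was called.

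Within the list, the size of the difference varied, and the grouping that follows was chosen after the values were seen. Cnn1, Actg2, Tagln, Acta2, Myl9, Lmod1 and Myh11 had log2 fold changes of 1.43 to 2.05. The pericyte genes Rgs5 (0.44), Cspg4 (0.85), Mcam (0.08), Kcnj8 (0.43) and Abcc9 (0.18) lay nearer 0, and in each of these 5 the groups overlapped. The other two members were Des (desmin, 0.70) and Notch3 (0.50). Summed over the 14 genes, the level was 599, 495, 596 and 596 CPM in STZ HFD, 363, 263 and 270 CPM in DT HFD and 279 to 487 CPM in CTRL HFD. Beside these sums, STZ HFD replicates 1 and 2 held 1.44% and 2.68% acinar counts, against 1.52% to 4.26% in the DT libraries, and 599 and 495 CPM of the list. Over all 18 alternatives the list median lay between 0.96, with the acinar score as a covariate, and 1.36, without DT HFD replicate 1.

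The CArG box, the sequence bound by serum response factor in front of many contractile genes, was looked for in the 250 bases before the start of each gene, on both strands, in the RefSeq promoters of GRCm38.p6. Of the 11 list members with a promoter in that table, 1 had a match, Myl9, while 1.47% of all 32851 promoters did. The stretch before Myl9, chr2:156775214-156775419 on the plus strand, is shown because this gene was called and holds the match, which is in capitals and begins 161 bases before the start in the RefSeq table. That start lies inside the GENCODE gene given above, so the last 44 bases before it, which a GENCODE exon covers, are left out.
Myl9: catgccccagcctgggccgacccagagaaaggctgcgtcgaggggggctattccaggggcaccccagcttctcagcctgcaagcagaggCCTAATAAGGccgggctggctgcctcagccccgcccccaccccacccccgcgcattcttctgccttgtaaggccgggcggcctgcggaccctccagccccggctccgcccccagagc

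Mgp, which encodes the matrix Gla protein that blocks calcification in vessel walls, was at 97.0, 59.9, 65.4 and 58.9 CPM against 24.8, 11.1 and 16.4 CPM (log2 fold change 2.01, SE 0.43, edgeR adjusted p = 0.0406). Unlike Mustn1, its untreated HFD levels of 25.4 to 39.4 CPM lay between the treated groups. It was the 1 called gene of 24 mesenchymal matrix genes (0.0851% of all genes were called higher), of which 22 were above 0 with a median of 0.34 (8737 of 17616 over all genes). In 4 of them, Mgp, Dcn, Bgn and Pdgfra, every STZ library was above every DT library (5.15% of all genes). The fibrillar collagens Col1a1, Col1a2 and Col3a1 had log2 fold changes of 0.39 to 0.52 and overlapped.

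Egfl7, a protein secreted by endothelial cells, was at 42.7, 54.8, 59.5 and 53 CPM after STZ and at 29.2, 18.6 and 27.7 CPM after DT (log2 fold change 1.06, SE 0.19, edgeR adjusted p = 0.0387). The untreated HFD libraries, at 28.2 to 37.2 CPM, lay below every STZ library. It was the 1 called gene of 18 endothelial genes (0.0851% of all genes were called higher). Of the 18, 17 were above 0 with a median of 0.55 (8737 of 17616 over all genes). Vwf (von Willebrand factor), Esam, Erg and Sox17 also had every STZ library above every DT library (5.15% of all genes), with log2 fold changes of 0.73 to 1.23 and edgeR adjusted p of 0.103 to 0.256. The endothelial markers Pecam1 (0.23), Cdh5 (0.28), Kdr (-0.04) and Plvap (0.41) overlapped between groups.

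Mustn1 and Tpm2 lay outside the fixed lists, as did other named rises. Those others were Cracr2b, a calcium sensor (log2 fold change 1.41), S100a16, an EF-hand calcium binder (1.25), and Gng11, a G protein gamma subunit (1.08). They also included Rab13, a small GTPase of vesicle traffic (0.91), Kank2, an adaptor at focal adhesions (0.88), and the membrane protein gene Tmem141 (0.82). Of these others, Cracr2b and Gng11 were also higher in STZ HFD than in CTRL HFD (edgeR adjusted p = 0.0393 and 0.0085). Gng11 was at 13.6, 14.4, 13.1 and 12.6 CPM after STZ against 6.29, 5.45 and 7.24 CPM after DT. Chosen after its values were seen, Slc2a4, the insulin-responsive glucose transporter GLUT4 of muscle and fat, was also called (log2 fold change 2.33) at levels of 1.09 to 2.93 CPM against 0.20 to 0.55 CPM.

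Gm10260, a predicted gene, had the largest rise and is named apart because the naming rule leaves out symbols that begin with Gm and a digit. Its log2 fold change was 8.76 (SE 1.91, edgeR adjusted p = 0.0421). Its 4 STZ libraries were at 207, 155, 296 and 187 CPM and its DT libraries at 0.00, 0.60 and 0.85 CPM. The untreated HFD libraries spread widely, at 5.65, 118, 83.1 and 170 CPM. All were above every DT library, and the highest lay within the STZ range. Predicted genes of this kind can share reads with near-identical copies, so its level is uncertain.

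Among the named falls, the smallest adjusted p was that of Bptf, the largest subunit of the NURF chromatin remodeller (chr11:107033081-107132127), at 149, 126, 125 and 103 CPM after STZ and at 193, 261 and 192 CPM after DT. Every STZ library was below every DT library and below every untreated HFD library (163 to 238 CPM). Its log2 fold change was -0.78 (SE 0.13, edgeR adjusted p = 0.0298), and against CTRL HFD it was -0.58 (edgeR adjusted p = 0.0393). Other named falls of this size were Rfc1, the large subunit of the clamp loader of replication (-0.81), Dzip3, a ubiquitin ligase (-0.80), Top1, DNA topoisomerase I (-0.79), Nup160 of the nuclear pore (-0.76), Utp20 of ribosome assembly (-0.76) and Whsc1, a histone H3 lysine methyltransferase (-0.74). None of these 6 was called against CTRL HFD, whose levels lay between the 2 treated groups in mean.

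**Figure D2:**
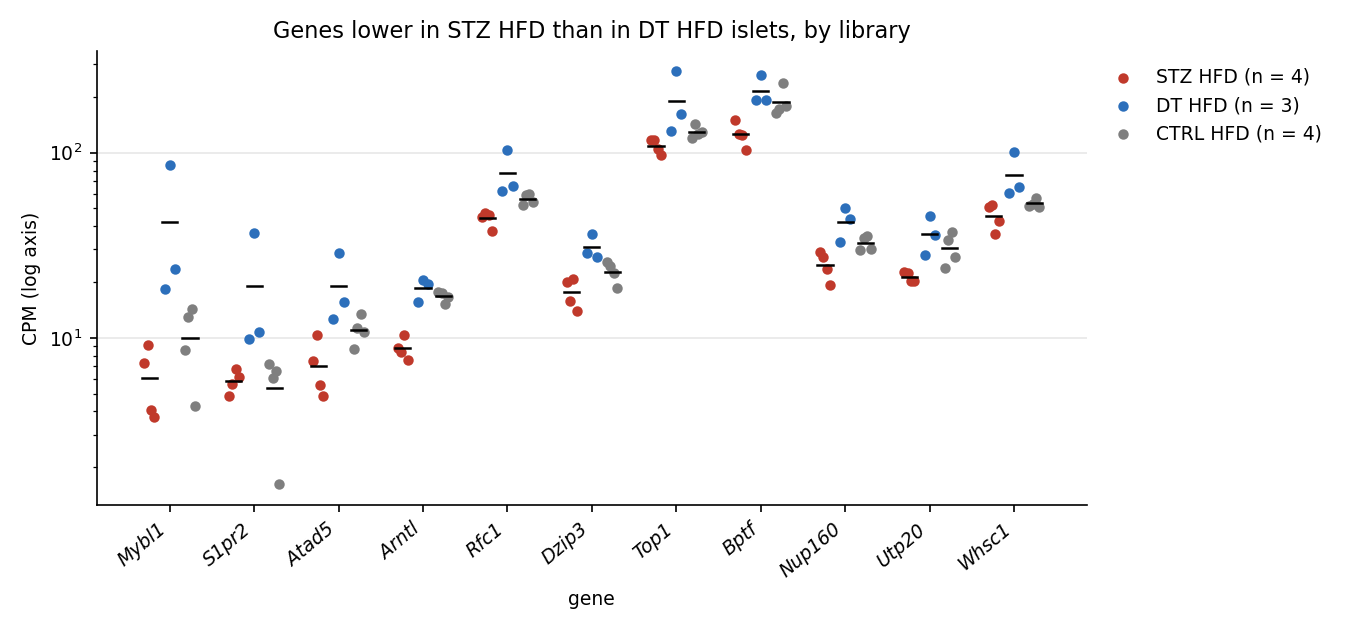
CPM of 11 named genes that were lower in STZ HFD, on a log axis, 1 point per library, with the group mean as a black bar, for STZ HFD (red), DT HFD (blue) and CTRL HFD (grey). In each gene all red points lie below all blue ones; in Bptf the highest is DT HFD replicate 2 at 261 CPM.

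DT HFD replicate 2 was the highest of the 7 libraries in 41 of the 45 lower genes. Without that library 0 of the lower genes passed. Untreated HFD means lay above the STZ mean in 44 of 45 and below the DT mean in 44 of 45. In 26 of 45 every STZ library was below every untreated library. These same STZ and DT libraries chose the 45 genes, which favours this order, and the shares over all genes were not computed.

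The called genes also differed in transcript length. The median summed exon length was 3046.5 bp over the genes tested, 7204 bp over the 45 lower genes, of which 44 were above that median, and 1539 bp over the 15 higher genes, of which 1 was. The same slope ran through all genes: the median log2 fold change fell from 0.22 in the shortest decile of genes (median 721 bp) to -0.17 in the longest (median 8534 bp). Per library, the longest decile stood above the shortest by 0.29, 0.22 and 0.13 (log2) in DT HFD and by 0.08 to 0.57 in CTRL HFD, and by -0.03, -0.46, 0.03 and -0.09 in STZ HFD, so the STZ libraries did not overlap the other 2 groups. With each library's length trend taken out, an alternative chosen after seeing the data, the medians of the shortest and longest deciles were 0.04 and -0.04, and 1 gene was called, Mustn1 (log2 fold change 1.75, edgeR adjusted p = 0.0439). Among named genes no longer called, the log2 fold change with the offset was 1.58 for Tpm2 (1.63 as reported), 1.33 for Myl9 (1.51), 1.88 for Mgp (2.01), -1.11 for Arntl (-1.07), -0.81 for Top1 (-0.79) and -0.63 for Bptf (-0.78).

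**Figure D3:**
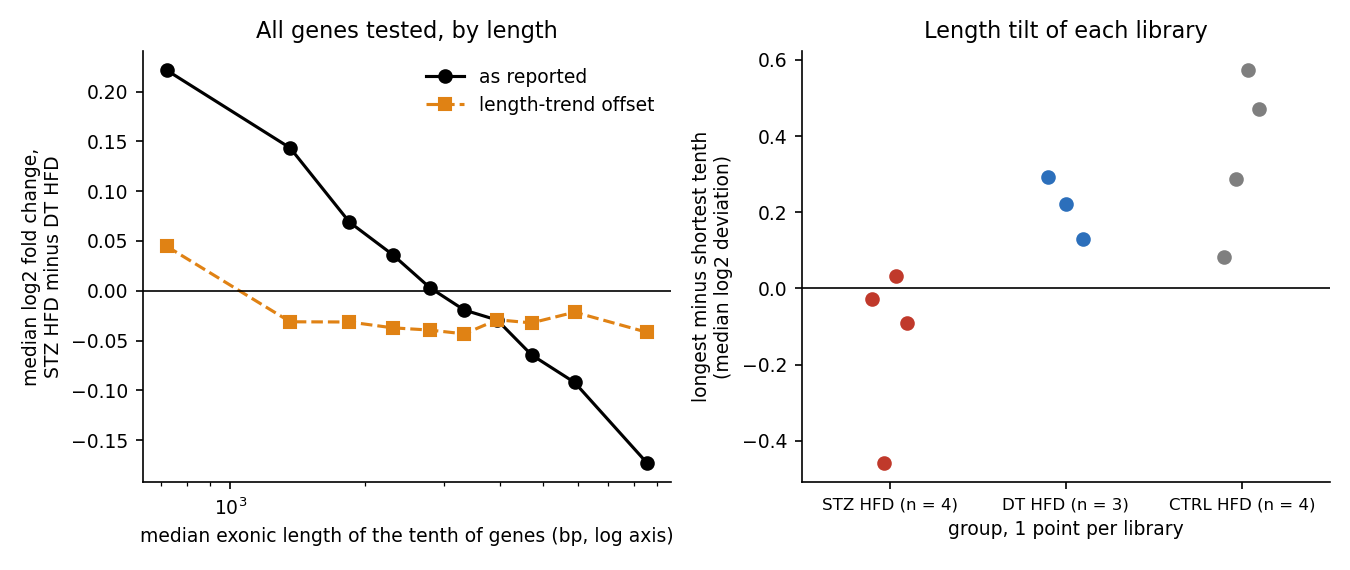
Left, median log2 fold change of STZ HFD minus DT HFD in each decile of genes by exonic length (log axis), as reported (black) and with a length-trend offset (orange): the black line falls from 0.22 to -0.17. Right, the longest minus the shortest decile in each library, 1 point per library: the STZ HFD points lie at or below 0.03 and the others at or above 0.08.

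The largest named falls had 1 DT library far above the rest. Mybl1, the transcription factor A-MYB, was at 7.30, 9.13, 4.06 and 3.71 CPM after STZ and at 18.3, 85.6 and 23.4 CPM after DT (log2 fold change -2.80, SE 0.60, edgeR adjusted p = 0.0418). S1pr2, a sphingosine 1-phosphate receptor, was at 4.86, 5.62, 6.74 and 6.14 CPM against 9.88, 36.7 and 10.7 CPM (-1.71, SE 0.38, edgeR adjusted p = 0.0433). Atad5, which unloads the replication clamp, was at 7.52, 10.3, 5.58 and 4.84 CPM against 12.6, 28.6 and 15.6 CPM (-1.42, SE 0.31, edgeR adjusted p = 0.0421). In all 3 the groups did not overlap, and DT HFD replicate 2 was the highest library. Without that library the log2 fold changes were -1.78, -0.82 and -0.99, and none was called. The B-cell sum (4325 CPM) and the mitosis sum (1400 CPM) were also highest in that library. In DT HFD replicate 1 the B-cell sum, 2539 CPM, lay within the STZ range of 1238 to 2826 CPM, and replicate 3 was at 3168 CPM. The part of either list in these falls was not tested.

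Ighv5-9, an immunoglobulin heavy chain variable segment, had the largest fall of all. Its CPM was 1.60, 0.80, 0.58 and 0.00 after STZ and 7.00, 21.9 and 321 after DT, so DT HFD replicate 3 alone carried most of the level. The fitted log2 fold change was -7.11 (SE 1.37, edgeR adjusted p = 0.0406). Variable segments share sequence with their relatives, so reads can be split among them and the value is uncertain.

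No mitosis gene was called, although all 22 on the list had log2 fold changes below 0 (median -1.41). Mki67, the antigen of cycling cells, was at 42.7, 93.9, 34.6 and 27.8 CPM after STZ and at 74.4, 381 and 178 CPM after DT, and the groups overlapped through STZ HFD replicate 2. Its log2 fold change was -2.08 (SE 0.60, edgeR adjusted p = 0.0990), and that of Top2a, the topoisomerase of dividing cells, was -1.75 (SE 0.58, edgeR adjusted p = 0.143). Untreated HFD islets held 31.9 to 72.7 CPM of Mki67, in the range of the STZ libraries. All 28 DNA replication genes were likewise below 0 (median -0.87) with none called, and 1, Pola1, had every STZ library below every DT library (5.99% of all genes). Without DT HFD replicate 2 the list medians were -0.78 and -0.37. Over all genes 8854 of 17616 were below 0.

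Of the 16 circadian clock genes, Arntl alone was called (0.255% of all genes were called lower). The circadian clock is a feedback loop in which Arntl (BMAL1) with Clock or Npas2 switches on genes through E-boxes, among them the Per and Cry repressors, the Nr1d1 and Nr1d2 receptors that in turn repress Arntl, and the output factors Dbp, Tef and Hlf. Arntl (chr7:113207465-113314126) was at 8.84, 8.40, 10.4 and 7.59 CPM after STZ and at 15.6, 20.4 and 19.5 CPM after DT. The highest STZ library was under the lowest DT library, and the untreated HFD libraries, at 15.2 to 17.7 CPM, lay with the DT group. The log2 fold change was -1.07 (SE 0.20, edgeR adjusted p = 0.0403), and against CTRL HFD it was -0.92 (edgeR adjusted p = 0.0352). Without DT HFD replicate 2 it was -0.99 and without STZ HFD replicate 4 it was -1.01. In both cases it was not called (edgeR adjusted p = 0.607 and 0.135). Over the alternatives with more than 1 library in each group its adjusted p ran from 0.000186 (DESeq2 Wald test) to 0.607 (edgeR).

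The other clock genes were not called. Of the 16, 12 were above 0 with a median of 0.46, 5 had every STZ library above every DT library (5.15% of all genes) and 2 had every STZ library below (5.99%). The 5 were Per1 (0.39), Nr1d2 (0.79), Dbp (1.25), Tef (0.88) and Ciart (0.96), and the 2 were Arntl and its relative Npas2 (-2.12). Dbp was at 109, 61.6, 76.4 and 105 CPM after STZ and at 52.5, 16.3 and 41.8 CPM after DT (SE 0.40, edgeR adjusted p = 0.123). Npas2 was low throughout, at 0.00 to 0.66 CPM against 0.86 to 2.18 CPM. Clock itself overlapped, at 45.3 to 62.3 CPM against 60.1 to 69.9 CPM.

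**Figure D4:**
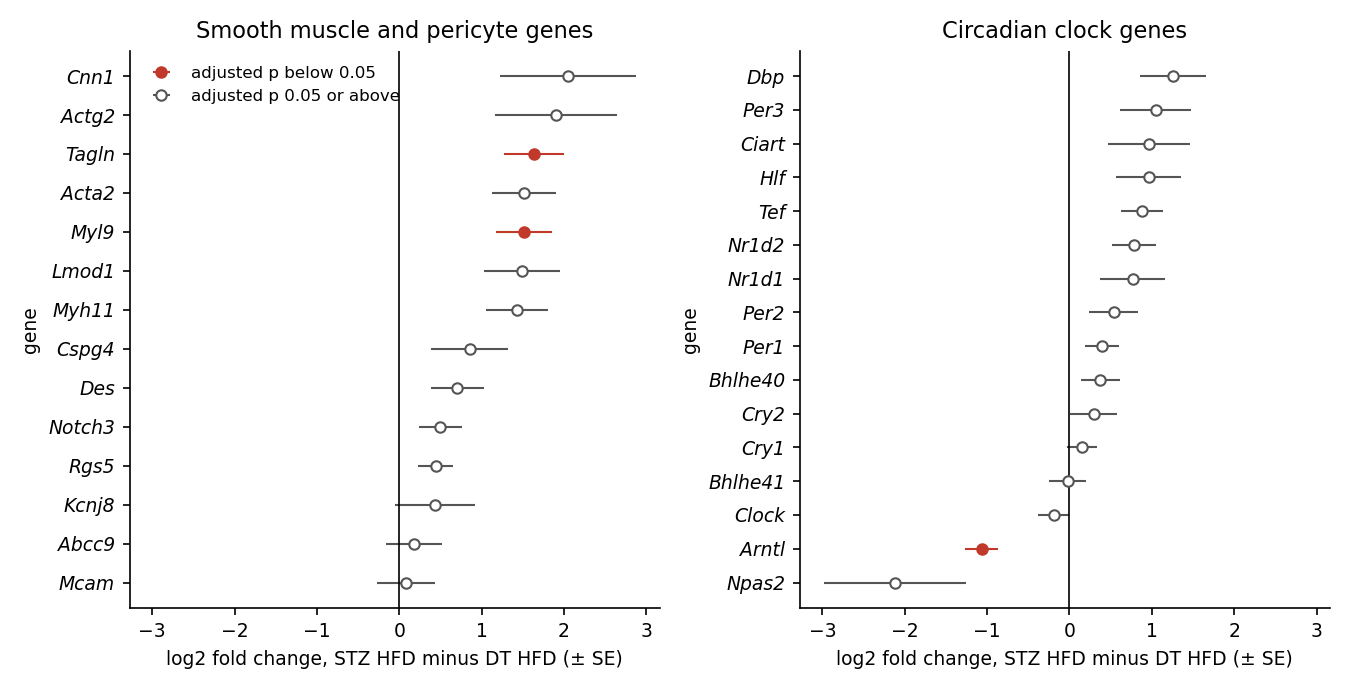
Log2 fold change of STZ HFD minus DT HFD with its SE for each tested member of the smooth muscle and pericyte list (left, 14 genes) and the circadian clock list (right, 16 genes), filled red where the edgeR adjusted p is below 0.05. On the left every point is above 0; on the right Dbp is highest at 1.25 and Npas2 lowest at -2.12.

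The E-box CACGTG, the palindrome that BMAL1 and CLOCK bind, was present in the 250 bases before the start of 5 of the 14 clock genes with a RefSeq promoter (Per1, Cry1, Tef, Ciart and Bhlhe41) and of 6.02% of all 32851 promoters. The stretch before Ciart, a repressor of the CLOCK and BMAL1 pair, is shown because its libraries did not overlap (3.94 to 4.98 CPM after STZ, 2.06 to 2.52 CPM after DT) and it holds 3 matches, in capitals, beginning 116, 58 and 44 bases before the start in the RefSeq table. It is chr3:95882252-95882478 of GRCm38.p6 on the minus strand, written 5′ to 3′, without the last 23 bases before that start, which a GENCODE exon covers.
Ciart: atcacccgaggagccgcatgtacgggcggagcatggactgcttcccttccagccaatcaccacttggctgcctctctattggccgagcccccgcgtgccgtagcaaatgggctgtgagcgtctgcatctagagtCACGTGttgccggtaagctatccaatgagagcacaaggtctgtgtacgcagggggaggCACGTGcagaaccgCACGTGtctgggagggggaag
On SD the same 5 genes with an E-box had STZ minus DT log2 fold changes of -0.06 to 0.96, and Arntl itself was 0.38.

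The hormone genes and beta-cell genes were not called in either direction. Ins1 was at 34371, 18559, 52685 and 21045 CPM after STZ and at 24898, 7779 and 29176 CPM after DT, a log2 fold change of 0.62 (SE 0.52, edgeR adjusted p = 0.610), and Ins2 gave 0.55 (SE 0.56). The ranges overlapped, and the lowest insulin level of the 7 was in DT HFD replicate 2. Gcg (glucagon, -0.28) and Sst (somatostatin, -0.22) overlapped as well, as did the beta-cell factor Mafa (-0.19), Ucn3 of mature beta cells (0.13) and the STZ transporter gene Slc2a2 (0.16). Of 19 beta identity genes, 16 were above 0 with a median of 0.29 (8737 of 17616 over all genes). Without DT HFD replicate 2 the list median was 0.01. In 1 of the 19, Iapp (amylin), every STZ library was above every DT library, beside 5.15% of all genes. Iapp was at 6372 to 8940 CPM after STZ against 2362 to 6082 CPM after DT.

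Ppy (pancreatic polypeptide) differed among the DT libraries more than between the groups: it was at 4819, 117 and 12.5 CPM in DT HFD replicates 1 to 3 and at 1690 to 2234 CPM in STZ HFD. Its log2 fold change was 0.28 (SE 1.59), and without DT HFD replicate 1 it was 4.95. Hbegf, an EGF receptor ligand whose human form is the DT receptor, was at 408 CPM in STZ HFD replicate 1 and at 5.62 to 14.9 CPM in the other 3, against 3.72 to 9.79 CPM after DT. The untreated HFD libraries, at 53.6 to 86.3 CPM, lay above every compared library but STZ HFD replicate 1. The Hbegf log2 fold change of 4.10 (edgeR adjusted p = 0.0606) was 0.76 without STZ HFD replicate 1. Cdkn1a, the p53-induced cell cycle inhibitor p21, was at 7.91 to 21.1 CPM against 8.03 to 11.4 CPM (0.36, SE 0.47).

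Of the 44 lists, 4 held a called gene, 5 genes in all (Tagln, Myl9, Mgp, Egfl7 and Arntl), beside 0.341% of all genes called. Among the other 40, acinar genes were above 0 in 32 of 32 (median 3.58), yet none was called and none had separate groups. STZ HFD replicates 1 and 2 lay in or below the DT range of acinar share. Without STZ HFD replicate 4 the acinar median was 1.26. The Reg family of secreted lectins followed it, at 11823 summed CPM in STZ HFD replicate 4 and 124 to 1421 CPM in the other 6. Enterocyte genes had a median of -3.72, which was 1.46 without DT HFD replicate 1.

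**Figure D5:**
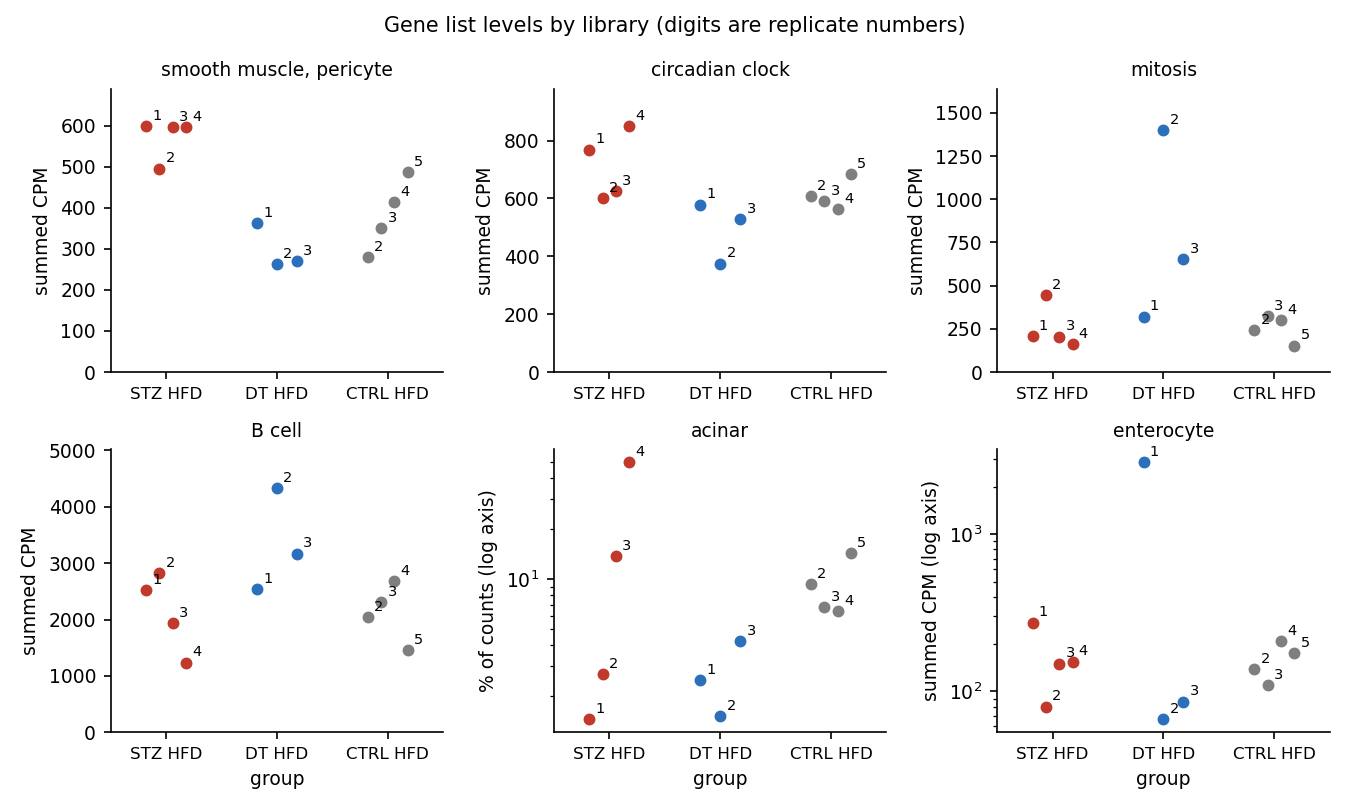
Summed level of 6 gene lists in each library (acinar as a percentage of counts; acinar and enterocyte on log axes), 1 point per library with its replicate number, in STZ HFD (red), DT HFD (blue) and CTRL HFD (grey). Smooth muscle separates red from blue (495 to 599 against 263 to 363 CPM), mitosis is highest in DT HFD replicate 2, acinar in STZ HFD replicate 4 and enterocyte in DT HFD replicate 1.

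No immune gene on the lists was called. All 15 B-cell genes were below 0 (median -0.63), and in 4 of them, Pax5, Cr2, Fcer2a and Cxcr5, every STZ library was below every DT library (5.99% of all genes). All 12 MHC class II genes were below 0 (median -0.42), and H2-Eb2, H2-DMa and Ciita, 3 of the 12, had every STZ library below every DT library (5.99% of all genes). T and NK cell genes (median -0.15), macrophage genes (-0.08) and interferon-response genes (-0.09) lay near 0. STZ HFD replicate 4, with 50.1% acinar counts, was the lowest of the 7 in the B-cell sum (1238 CPM), and DT HFD replicate 2 was the highest.

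No metabolic or growth-factor gene on the lists was called. Of 28 sterol and fatty acid synthesis genes, 24 were below 0 (median -0.29). Srebf2, the regulator of sterol synthesis, was at 114, 118, 121 and 80.1 CPM against 123, 158 and 141 CPM (log2 fold change -0.38, edgeR adjusted p = 0.299). In the EGF and IGF list 15 of 17 tested genes were above 0 (median 0.45), and the 4 with every STZ library above every DT library (5.15% of all genes) were Igf1 (1.22), Igf2 (1.78), Igfbp5 (0.65) and Igfbp7 (0.60). Igf2 came nearest to the threshold (edgeR adjusted p = 0.0530), at 22.6, 12, 16 and 21.8 CPM against 8.53, 3.12 and 4.14 CPM. Untreated HFD islets, at 12.2 to 14.2 CPM, were above every DT library and within the STZ range. Unfolded protein response genes (median 0.05), p53 targets (-0.04), NRF2 targets (0.00) and oxidative phosphorylation genes (0.16) lay near 0.

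Against untreated islets on HFD, 83 genes passed for STZ HFD against CTRL HFD (0.471%) and 1 for DT HFD against CTRL HFD (0.00568%), at 2409 and 2104 genes with an unadjusted p below 0.05. These comparisons share the control libraries and differ in library number. Of the 15 higher genes, 12 had every STZ library above every untreated library. The same STZ libraries chose these genes, which favours this order, and the share over all genes was not computed.

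On SD, 2 of the 60 genes were also called in the same direction: Gm10260 (log2 fold change 7.67, edgeR adjusted p = 0.0268) and Dzip3 (-0.64, edgeR adjusted p = 0.0369). Gm10260 was at 188, 0.46, 6.02 and 2.62 CPM in STZ SD replicates 1 to 4 and at 0.00 to 0.74 CPM in DT SD. STZ SD replicate 1 thus carried most of its level, and the groups overlapped. Of the 15 higher genes 10 were also above 0 on SD, and of the 45 lower genes 31 were also below 0. Over all genes the median log2 fold change on SD was 0.044. The shares of all genes called, above 0 or below 0 on SD were not computed, so these counts have no background beside them. Mustn1 was at 11.7, 12.1, 10.4 and 4.00 CPM in STZ SD replicates 1 to 4 and at 4.42 to 7.55 CPM in DT SD, and Tagln was at 51.5, 65.4, 56.5 and 14.4 CPM against 19.5 to 36.0 CPM. In both, 3 of the 4 STZ SD libraries were above all DT SD libraries and STZ SD replicate 4 was below them, and neither was called on SD (log2 fold changes 0.77 and 0.80, edgeR adjusted p = 0.0856 and 0.156). Arntl did not separate by treatment on SD: STZ SD was at 7.35 to 15.7 CPM and DT SD at 5.89 to 10.3 CPM, and the groups overlapped.

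The test of the difference between the diets, the HFD difference minus the SD difference, called 1 gene (0.00568%), Ighv5-9, with 3607 genes at an unadjusted p below 0.05. For Arntl the difference was -1.45 (SE 0.27, edgeR adjusted p = 0.0640), for Mgp 1.98 (SE 0.55, 0.0844), for Mustn1 1.18 (SE 0.38, 0.102) and for Tagln 0.83 (SE 0.47, 0.311), none of them called. Leaving out STZ SD replicate 2 or 3 raised the number of called genes to 530 or 506.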

How the data were processed

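Stranded mRNA libraries of pancreatic islets were made with a Qiagen kit, per the labels. The authors deposited raw counts per gene, with RPKM, TPM and a further per-library score labelled CPM beside them; only the counts were analysed. The build is mm10, per the submitters' processing notes; aligner and counter: not given in the sources used here. In all, 48709 genes were listed, 99.26% of them in GENCODE M21 (GRCm38), which gave positions and exon lengths. Of 34 libraries, 33 entered in 9 groups; 1 whose title and treatment label disagree was left out. In R 4.3.3, genes passing filterByExpr (minimum count 10, total 15) were TMM-scaled and fitted with edgeR 4.0.16 (robust quasi-likelihood), with Benjamini-Hochberg adjustment over 17616 genes. DESeq2 1.42.0 was an alternative. In simulated data with 200 changed genes, 30% of 2-fold and 65% of 4-fold changes were recovered and 2.06% of 97 calls were false. The simulated counts were drawn independently for each gene, without shared library effects such as uneven acinar RNA. These rates may therefore not hold for the real libraries. Compared libraries held 12235120 to 15694515 counts.

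Named genes are 12 fixed genes, up to 12 called rises and 12 called falls by size whose log2 CPM averaged 1 or more (leaving out symbols of predicted genes, Rik clones, pseudogenes and mitochondrial genes), and up to 3 called genes per list. Comparisons, members and lists were chosen with earlier results of these data known. Alternatives covered scaling, low-count filter, hormone and acinar genes, acinar covariate, replicate block, test, libraries and, added after seeing the data, transcript length.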

Additional observations from a re-analysis of the deposited data

Results flagged for a closer look

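In 8 cases a value stood apart. Within the 4 STZ HFD libraries, 1 library lay far from the other 3 (by Dixon's 95% critical value for the gap over the range) in 7 of 80 values examined; chance gives about 1 in 20. Hbegf was at 408 CPM in replicate 1 and Mgp at 97.0 CPM, also in replicate 1. Replicate 2 was low for Mafa (28.2 CPM), for Myl9 (46.1 CPM) and for the smooth muscle and pericyte sum (495 CPM), and high for the mitosis sum (445 CPM). Replicate 4 was high for the Reg family sum (11823 CPM). For Ighv5-9 the STZ to DT difference on HFD differed from that on SD by -11.43 (log2, edgeR adjusted p = 0.0293): DT HFD held 7.00 to 321 CPM and STZ HFD 0.00 to 1.60 CPM, while STZ SD held 3.32 to 18 CPM and DT SD 0.08 to 1.15 CPM.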

How the results depend on the processing

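Against 60 called genes (15 higher, 45 lower), 5 (3 and 2) passed with no low-count filter and 1 (1 and 0) with the acinar score as a covariate. DESeq2's Wald test passed 663 (295 and 368), and the compared groups alone gave 1 (1 and 0). Without STZ HFD replicate 2 and DT HFD replicate 2, 0 (0 and 0) passed. Each had the highest B-cell sum and the highest T- and NK-cell sum of its group. All 7 libraries held B-cell RNA (1238 CPM or more). The kept DT HFD replicate 3, at 3168 CPM, was above the dropped STZ HFD replicate 2, at 2826 CPM. With the length-trend offset 1 (1 and 0) passed. The cause was not tested. Leaving out libraries with RNA of other tissues dropped STZ HFD replicates 2 and 4 and DT HFD replicates 1 and 2. It kept STZ HFD replicate 3, with 13.7% acinar counts, and left DT HFD replicate 3 alone in its group, so only fold changes are given. Leaving out 1 library gave 1 to 290 calls, 0 to 64 higher and 0 to 226 lower. The replicate block gave 8 calls (4 higher, 4 lower). Same-numbered libraries of the 2 groups correlated at 0.25, 0.44 and 0.07. For replicates 1 and 2 no pair with another number was as high, while STZ HFD replicate 3 correlated more with DT HFD replicate 1 (0.09). Whether the replicate numbers mark shared handling was not tested. For the difference between diets, 1 call (0 higher, 1 lower) became 0 with no filter, the acinar covariate, the replicate block and the compared groups alone. It also became 0 without STZ HFD replicate 2 and DT HFD replicate 2. The stricter filter gave 2 (1 higher) and DESeq2 849 (213 higher, 636 lower). Leaving out 1 library gave 0 to 530, 0 to 88 higher and 0 to 445 lower. Of the values of 36 named genes under 18 alternatives, 371 kept direction and side, 256 lost the call, 5 gained it and 16 changed sign. The sign changed for Sst with the replicate block (0.083). It changed for Ppy (-0.34) and Ucn3 (-0.014) without STZ HFD replicate 2 and DT HFD replicate 2. None of them was called in those settings. It also changed for Gcg (0.37) and Sst (2.23) without the libraries with RNA of other tissues, where DT HFD replicate 3 stood alone. Leaving out 1 library gave -0.49 to 0.12 for Gcg, -0.68 to 0.84 for Sst, -0.31 to 4.95 for Ppy, -0.45 to 0.049 for Mafa, -0.12 to 0.47 for Slc2a2, -0.20 to 0.45 for Ucn3 and -0.038 to 0.50 for Cdkn1a. Total counts were alike, but the TMM factors of the 7 ran from 0.464 (STZ HFD replicate 4) to 1.22, so usable depth was not.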
